A study of Mus musculus with 12 samples.

Results

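The 10 genes of sarcoplasmic calcium handling described here, Ryr2, Casq2, Trdn, Hrc, Jph2, Atp2a2, Pln, Slc8a1, Camk2b and Camk2d, were chosen and read by gene symbol from a table of expression in mouse hearts that lists 55885 genes. All 10 genes were found once and are among the 13815 that passed the filter on low values and were tested. RNA from cardiac tissues of 12 male C57BL/6 mice was sequenced, 3 in each of 4 groups, to ask what loss of STING, an adaptor protein of the response to cytosolic DNA, does to the heart under the anticancer drug cisplatin. The Saline group was wild type without cisplatin, and the CDDP group was wild type with cisplatin. The STING-/- group carried a STING knockout and received no cisplatin, and the STING-/-+CDDP group carried the same knockout and received the drug. Mice were 8 weeks old at the start, and those given cisplatin received intraperitoneal doses of 6 mg/kg on days 1, 8 and 15, with collection on day 22. The sample labels call both groups without cisplatin untreated, whereas the methods of the study name the wild-type one a saline group. Per the methods the knockout and wild-type mice came from different suppliers, so genotype and supplier cannot be told apart.

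With each heartbeat of a cardiomyocyte, calcium that enters through voltage-gated channels opens the ryanodine receptor (Ryr2), and calcium stored in the sarcoplasmic reticulum flows into the cytosol and starts contraction. Calsequestrin (Casq2) holds calcium inside the store, triadin (Trdn) ties it to the receptor, the histidine-rich calcium binding protein (Hrc) sits in the same lumen, and junctophilin (Jph2) keeps the store close to the surface membrane. For relaxation the pump SERCA (Atp2a2) returns calcium to the store under the brake of phospholamban (Pln), the sodium-calcium exchanger (Slc8a1) moves calcium out of the cell, and the calmodulin kinases Camk2b and Camk2d phosphorylate several of these proteins.

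Cisplatin went with lower Casq2 in wild-type hearts, with a mean TPM at 29.0% of the Saline mean, and with higher Camk2b, at 2.80 times the Saline mean, or 1.76 times without heart 1 of the CDDP group. In these CDDP against Saline hearts 2 of the 10 genes passed an adjusted p of 0.05 (limma, Benjamini-Hochberg over all genes tested), 1 in each direction, and 18.9% of all genes tested did so. Among STING-/- hearts Slc8a1 was the 1 gene of the 10 that passed with cisplatin, with a mean at 44.0% of the untreated mean, against 0.934% of all genes tested. With the effects of cisplatin in both genotypes averaged, 3 of the 10 genes passed (Casq2 and Slc8a1 lower, Camk2b higher), against 19.8% of all genes. Between genotypes under cisplatin, Camk2b was the 1 gene that passed and was lower without STING, against 1.22% of all genes. Without cisplatin 0 of the 10 genes differed between genotypes, against 0.0724% of all genes, and for the interaction, the difference between the effects of cisplatin in both genotypes, 0 of the 10 passed, against 0.00724% of all genes. For 1 gene of the 10 there was an unadjusted limma p under 0.05 in each of these last comparisons, Camk2b without cisplatin and Casq2 for the interaction, against 3.69% and 11.7% of all genes tested, and no alternative setting called any of the 10 there. The shares of 2 in 10 and 3 in 10 lie near the background, so the counts alone do not set these genes apart.

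The unit of expression, TPM, divides the reads of a gene by its length and scales each heart to the same sum, so levels of different genes can be compared but the depth behind a value is unknown. Fold changes are on the log2(TPM + 1) scale, which understates changes of genes with low TPM. The 7 cardiomyocyte markers summed to between 22081 and 37294 TPM in every heart, and these sums overlapped between all groups. By limma 1 of the 7 was higher in CDDP than in Saline hearts and 0 were lower, beside 8.52% and 10.4% of all genes. The skeletal myosins Myh1, Myh2 and Myh4 stayed at or under 0.11 TPM. The 7 skeletal muscle markers together summed to 41.6 TPM in heart 2 of the Saline group, with Mylpf at 20.6 and Tnni2 at 18.3 TPM, and to 4.88 to 12.8 TPM in all other hearts. Markers of other cells differed between CDDP and Saline hearts. Red blood cell genes summed to 4146 to 9317 TPM in Saline and 42.0 to 1271 in CDDP hearts. Macrophage genes summed to 92.2 to 141.8 and 29.4 to 59.0, and endothelial genes to 378.6 to 472.2 and 270.0 to 337.2. Of these lists 5 of 5, 3 of 5 and 3 of 5 genes were lower in CDDP hearts by limma. Over all genes tested 10.4% were lower in this comparison. There 4 of 6 fibroblast genes were also lower although their summed TPM overlapped. In STING-/- hearts without cisplatin red blood cell genes summed to 264 to 1465 TPM and endothelial genes to 266.8 to 373.9, both below every Saline heart. Macrophage genes summed to 95.3 to 129.1 TPM in these STING-/- hearts. Heart 1 of the CDDP group stood apart with 1118 TPM of the 6 neutrophil markers, against 27.5 and 44.6 in the other CDDP hearts. Heart 2 of the Saline group had 12612 TPM of the 3 atrial markers, against 5.53 and 10.4 in the other Saline hearts. Atrial markers summed to 190 to 3517 TPM in CDDP, 916 to 3974 in STING-/- and 107 to 3223 in STING-/-+CDDP hearts. Heart 1 of the CDDP group was the lowest of all 12 hearts for 6 of the 10 genes and the highest for Camk2b. Sting1 was lower in each STING-/- heart (2.87 to 5.96 TPM) than in each Saline heart (6.50 to 12.3 TPM), yet above 0 throughout. With cisplatin it was at 22.1, 5.62 and 8.81 TPM in CDDP hearts and at 4.26, 4.67 and 3.37 TPM in STING-/-+CDDP hearts. Over all 12 hearts the genotypes thus overlapped. The part of these differences in the results was not tested, and in RNA of whole tissue fewer cells of a type and less RNA per cell cannot be told apart.

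In the Saline hearts the pump and its brake stood highest, Atp2a2 at 2899 ± 563.5 TPM (SD, n = 3) and Pln at 2216 ± 397.3 TPM, and their ranges overlapped. Casq2 followed at 409.8 ± 39.8 TPM and Hrc at 321.0 ± 7.70 TPM, each apart from its neighbours in this order. Ryr2 (125.4 ± 28.4 TPM), Trdn (103.3 ± 5.81 TPM) and Jph2 (98.2 ± 15.9 TPM) lay close together, each overlapping the next. Camk2d at 43.3 ± 9.63 TPM and Slc8a1 at 40.5 ± 2.86 TPM overlapped as well, and Camk2b was lowest at 9.89 ± 2.98 TPM. The pathway annotation deposited with the values lists 9 of the 10 genes, all but Jph2, under calcium signaling and 6 under cardiac muscle contraction, terms that hold 134 and 80 of the genes tested. Casq2 and Camk2d lie on chromosome 3 and Pln and Trdn on chromosome 10, and the other 6 genes are on chromosomes of their own. Over all 12 hearts Trdn varied least, its highest heart being 1.59 times its lowest, and Camk2b varied most, at 13.1 times.

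**Figure D1:**
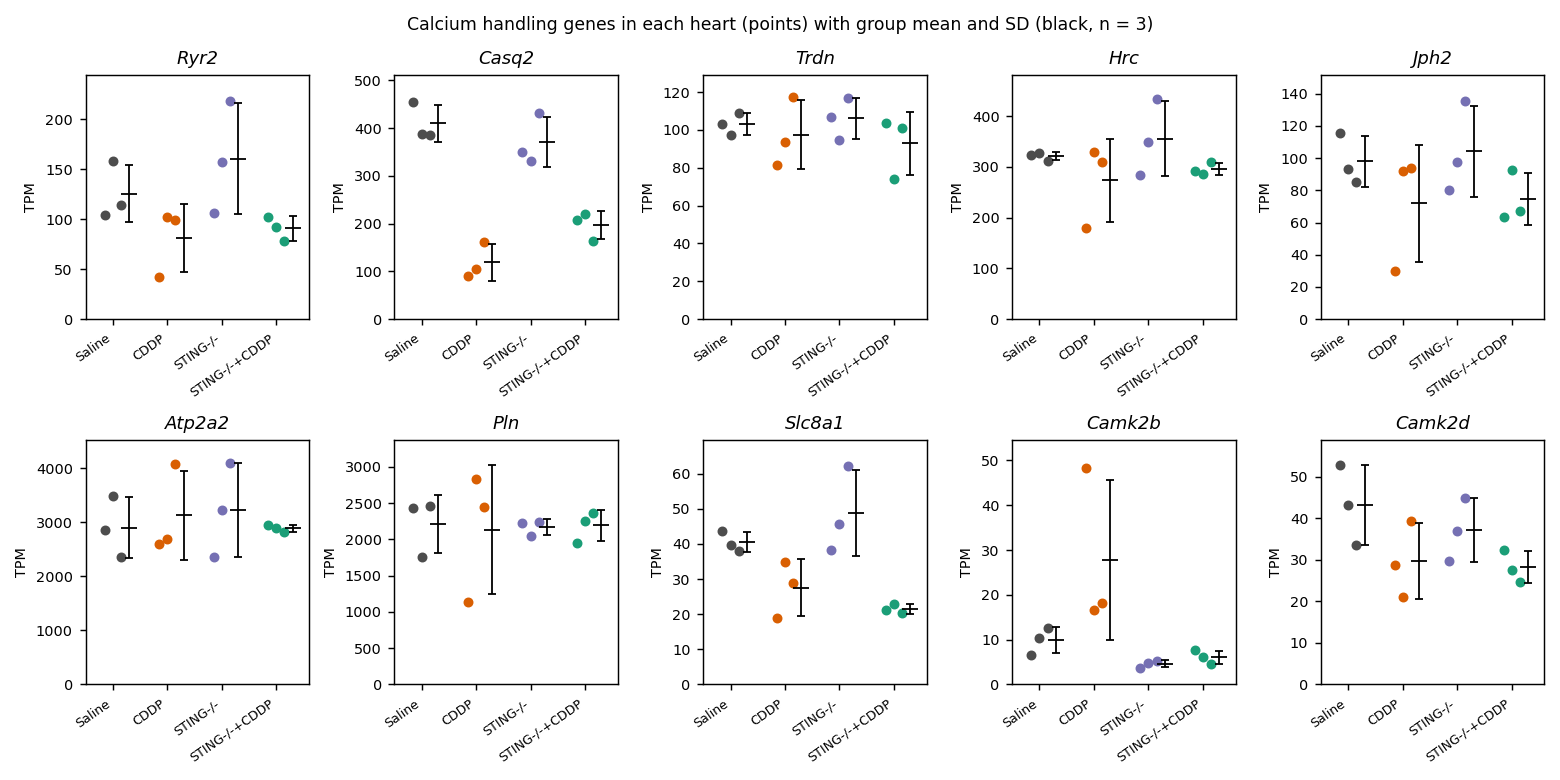
TPM of the 10 genes (vertical axes, each from 0) in the 12 hearts by group, with points for hearts 1, 2 and 3 from left to right and black marks for the group mean and SD (n = 3). Casq2 is lower in all CDDP than in all Saline hearts, Slc8a1 is lower in both cisplatin groups than in their untreated groups, and Camk2b is highest in heart 1 of the CDDP group at 48.3 TPM.

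Casq2, on chromosome 3 of GRCm38 from 102086415 to 102146514 on the plus strand, encodes the main calcium buffer of the cardiac store and showed the largest fall of the 10 genes in wild-type hearts and averaged over genotypes. In Saline hearts 1 to 3 it was at 456, 389 and 385 TPM, and in CDDP hearts at 90.4, 104 and 162 TPM. The STING-/- hearts gave 350, 332 and 432 TPM, and the STING-/-+CDDP hearts 208, 221 and 164 TPM. Every heart with cisplatin was thus lower than every heart without it, and every STING-/-+CDDP heart was higher than every CDDP heart, the closest values being 164 and 162 TPM.

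Against Saline, Casq2 fell by 1.82 on the log2 scale in CDDP hearts (SE 0.21, adjusted p = 7.15e-04, limma), and 140 of the 13815 genes had a lower value. The call remained without heart 1 of the CDDP group (log2 fold change -1.64, adjusted p = 0.00192) and when every heart was set relative to its cardiomyocyte markers (-1.80, adjusted p = 5.45e-04). In STING-/- hearts the log2 fold change with cisplatin was -0.91 (95% interval -1.36 to -0.46, adjusted p = 0.0674 by limma), and averaged over genotypes Casq2 fell by 1.36 (adjusted p = 2.83e-04). Under cisplatin the log2 fold change of STING-/-+CDDP against CDDP hearts was 0.76 (95% interval 0.31 to 1.21, adjusted p = 0.0859), and over 13 alternative settings, 4 of which called it, it ranged from 0.59 to 0.89 (adjusted p from 0.0265 to 0.221). The lowest of these, 0.59, came without heart 1 of the CDDP group and heart 2 of the Saline group. Without heart 1 of the CDDP group alone, which is not among these settings, it was also 0.59 (adjusted p = 0.171 by limma). The difference between the effects of cisplatin in both genotypes was 0.91 (95% interval 0.27 to 1.55, adjusted p = 0.333 by limma), so the smaller fall without STING was not shown to differ.

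The bases upstream of the starts of Casq2, Slc8a1 and Ryr2 are shown because these 3 genes were lower in every cisplatin heart than in every untreated heart of their genotype. The sequences come from RefSeq on GRCm38.p6, which matched 8 of the 10 genes, and hold the 250 bases before the start, 5′ to 3′ on the strand of the gene. They cover chr3:102086165-102086414 for Casq2 (plus strand), chr17:81738388-81738637 for Slc8a1 (minus strand) and chr13:12106946-12107195 for Ryr2 (minus strand). Capitals mark matches on either strand to a MEF2 motif, the E-box CANNTG, and AGATAA, the site of GATA factors.
Casq2: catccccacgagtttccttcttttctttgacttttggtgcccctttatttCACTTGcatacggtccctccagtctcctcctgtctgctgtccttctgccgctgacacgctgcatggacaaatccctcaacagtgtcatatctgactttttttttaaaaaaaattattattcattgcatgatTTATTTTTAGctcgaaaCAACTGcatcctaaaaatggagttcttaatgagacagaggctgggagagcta
Slc8a1: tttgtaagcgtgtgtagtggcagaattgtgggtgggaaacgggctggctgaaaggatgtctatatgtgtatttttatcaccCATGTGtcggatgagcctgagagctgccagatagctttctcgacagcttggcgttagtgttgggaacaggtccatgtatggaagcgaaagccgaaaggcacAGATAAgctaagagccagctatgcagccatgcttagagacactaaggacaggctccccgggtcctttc
Ryr2: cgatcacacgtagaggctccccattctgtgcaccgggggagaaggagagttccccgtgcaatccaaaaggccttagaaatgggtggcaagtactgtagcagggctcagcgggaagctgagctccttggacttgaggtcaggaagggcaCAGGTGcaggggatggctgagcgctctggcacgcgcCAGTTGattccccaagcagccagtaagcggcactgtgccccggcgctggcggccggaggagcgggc

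Also searched on both strands were the CArG box, bound by serum response factor, the GC box GGGCGG and TATAAA, none of which occurs in these 3 windows. Casq2 has the MEF2 match TTATTTTTAG, 69 to 60 bases before the start, and 2.92% of 32851 RefSeq windows of the same length hold such a match. The MEF2 match was the only one among the 8 genes with a window. E-boxes, which 66.2% of all windows hold, occur in all 3 sequences, 2 each in Casq2 and Ryr2 and 1 in Slc8a1. Slc8a1 also has AGATAA 68 to 63 bases before its start, a match that 9.99% of all windows hold and that Pln shares among the 8 genes with a window. No matches overlapped, and GC content was 41.6% for Casq2, 50.4% for Slc8a1 and 63.2% for Ryr2, against a median of 52.4% over all windows.

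Ryr2, the calcium release channel (chromosome 13, 11553102 to 12106945, minus strand), measured 104, 158 and 114 TPM in Saline hearts and 42.3, 103 and 99.3 TPM in CDDP hearts. Its values were 107, 157 and 218 TPM in STING-/- hearts and 103, 91.7 and 78.0 TPM in STING-/-+CDDP hearts. All cisplatin hearts lay below all untreated hearts of their genotype, with a gap of under 5 TPM in both. Heart 1 of the CDDP group was far below the other hearts with cisplatin. The log2 fold change was -0.70 (standard error 0.34, adjusted p = 0.168 by limma) in wild-type hearts, and -0.29 (adjusted p = 0.507) without heart 1 of the CDDP group. Without STING it was -0.76 (standard error 0.34, adjusted p = 0.350). Averaged over genotypes it was -0.73 (95% interval -1.25 to -0.21, adjusted p = 0.0503), which was not called, and the adjusted p ranged from 0.0246 to 0.114 over 12 alternative settings, 7 of which called the gene.

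The other genes of the junction and the store lumen showed no call in any comparison. Trdn, the anchor between calsequestrin and the receptor (chromosome 10, 33080554 to 33476709), was at 103, 97.6 and 109 TPM in Saline hearts and at 81.5, 93.5 and 118 TPM in CDDP hearts. The STING-/- hearts had 107, 94.95 and 117 TPM, and with cisplatin these were 104, 73.9 and 101 TPM. These ranges overlapped throughout, and the 95% interval of its log2 fold change in CDDP against Saline hearts ran from -0.47 to 0.27. D830005E20Rik, an antisense gene within the Trdn locus, reached 16.2 TPM, and no source used here states whether reads were counted by strand.

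Hrc, which binds calcium in the lumen (chromosome 7, 45335290 to 45338974), was at 324, 327 and 312 TPM in Saline and at 181, 329 and 311 TPM in CDDP hearts. Its STING-/- hearts were at 285, 349 and 434 TPM and its STING-/-+CDDP hearts at 292, 286 and 309 TPM. Of the CDDP hearts, heart 1 alone stood below the Saline hearts by over 5 TPM. The log2 fold change in CDDP against Saline hearts was -0.28 (95% interval -0.74 to 0.19, adjusted p = 0.389 by limma), and -0.0044 without that heart (adjusted p = 0.988).

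Jph2, the tether of the store to the surface membrane (chromosome 2, 163336242 to 163397993), showed the same outlying heart, with 29.9, 92.0 and 94.0 TPM in CDDP hearts against 116, 93.4 and 85.4 TPM in Saline hearts. It was at 80.2, 97.5 and 135 TPM in STING-/- hearts and at 63.4, 92.9 and 67.1 TPM with cisplatin. The groups overlapped in both genotypes, with log2 fold changes of -0.60 (standard error 0.37, adjusted p = 0.287 by limma) and -0.47 (standard error 0.37, adjusted p = 0.633). Without heart 1 of the CDDP group the value in wild-type hearts was -0.07 (adjusted p = 0.881). These intervals, as wide as -1.42 to 0.22 in wild-type hearts, leave room for a fall of the size seen for Slc8a1.

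Of the genes for uptake into the store, Atp2a2 (chromosome 5, 122453513 to 122502225) was at 2854, 3484 and 2360 TPM in Saline hearts and at 2606, 2697 and 4082 TPM in CDDP hearts. The STING-/- hearts had 2366, 3223 and 4100 TPM and the STING-/-+CDDP hearts 2949, 2894 and 2816 TPM. The groups overlapped in each comparison. Its log2 fold change was 0.10 (95% interval -0.39 to 0.58) in wild-type and -0.13 (95% interval -0.61 to 0.36) in STING-/- hearts with cisplatin, so that changes as large as that of Casq2 lie outside the intervals of limma in both genotypes.

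Pln, the inhibitor of the pump (chromosome 10, 53337667 to 53345987), was at 2438, 1757 and 2453 TPM in Saline hearts, and at 1130, 2835 and 2440 TPM in CDDP hearts. It was at 2231, 2048 and 2235 TPM in STING-/- hearts and at 1953, 2260 and 2366 TPM in STING-/-+CDDP hearts. Heart 1 of the CDDP group was again lowest, and heart 2 of that group was the highest of all 12. The log2 fold change with cisplatin was -0.14 (standard error 0.28, adjusted p = 0.760 by limma) in wild-type and 0.01 (standard error 0.28, adjusted p = 0.993) in STING-/- hearts, and the wild-type value was 0.26 (adjusted p = 0.290) without heart 1 of the CDDP group. Gm47644, on the opposite strand of the Pln locus, reached 27.8 TPM, a small level beside that of Pln.

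Slc8a1, the main route of calcium out of the cardiomyocyte (chromosome 17, 81373105 to 81738377, minus strand), was at 43.7, 39.8 and 38.1 TPM in Saline hearts and at 18.8, 34.9 and 29.0 TPM in CDDP hearts. It was at 38.3, 45.8 and 62.3 TPM in STING-/- hearts and at 21.1, 23.0 and 20.4 TPM in STING-/-+CDDP hearts. All 6 hearts with cisplatin were below all 6 hearts without it, and the STING-/-+CDDP hearts lay closest together. With cisplatin in STING-/- hearts it fell by 1.12 on the log2 scale (standard error 0.22, adjusted p = 0.0391 by limma), where the median over all genes tested was -0.11. Scaling by the median of ratios moved that median to -0.01 and left Slc8a1 at -1.003 (adjusted p = 0.0485). This call was lost in 8 of the 12 fits without 1 heart, with adjusted p from 0.0165 to 0.157, including those without any 1 of the STING-/- or STING-/-+CDDP hearts. In wild-type hearts the log2 fold change was -0.58 (95% interval -1.06 to -0.10, adjusted p = 0.0870), and -0.34 (adjusted p = 0.254) without heart 1 of the CDDP group. Averaged over genotypes Slc8a1 fell by 0.85 (standard error 0.16, adjusted p = 0.00369), a call that held in all 12 alternative settings and without each heart in turn. The interaction was -0.54 (95% interval -1.22 to 0.14, adjusted p = 0.517).

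Camk2b, the beta subunit of calmodulin kinase II (chromosome 11, 5969644 to 6066362, minus strand), was at 6.67, 10.5 and 12.5 TPM in Saline hearts and at 48.3, 16.7 and 18.1 TPM in CDDP hearts. It was at 3.70, 4.88 and 5.33 TPM in STING-/- hearts and at 7.59, 6.08 and 4.66 TPM in STING-/-+CDDP hearts. All CDDP hearts were above all Saline hearts. Heart 1 of the CDDP group, the heart with the high neutrophil markers, was far above the rest. All Saline hearts were above all STING-/- hearts. The share of all genes so separated is not given here for this pair, so no result is read from the separation. In the other pairs compared, 22.7% to 32.0% of all genes tested did not overlap. In CDDP against Saline hearts Camk2b rose by 1.27 on the log2 scale (standard error 0.36, adjusted p = 0.0301 by limma). Without heart 1 of the CDDP group the value was 0.80 (adjusted p = 0.0621), and without heart 1 of the Saline group 1.04 (adjusted p = 0.117). Of 13 alternative settings 8 kept the call, and relative to cardiomyocyte markers the value was 1.29 (adjusted p = 0.101). In STING-/- hearts the log2 fold change with cisplatin was 0.33 (95% interval -0.46 to 1.11, adjusted p = 0.742). Averaged over genotypes it rose by 0.80 (adjusted p = 0.0456), and 4 of 12 fits without 1 heart kept the call.

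Between genotypes Camk2b was lower by 1.87 on the log2 scale in STING-/-+CDDP than in CDDP hearts (value -1.87, SE 0.36, adjusted p = 0.0350, limma), with 86 of the 13815 genes at a lower value. Without heart 1 of the CDDP group it was -1.39 (adjusted p = 0.0515), and 4 of 12 fits without 1 heart kept the call. Without cisplatin the STING-/- hearts were at a log2 fold change of -0.92 (95% interval -1.70 to -0.14, adjusted p = 1). The interaction was -0.95 (95% interval -2.05 to 0.16, adjusted p = 0.489 by limma), and so a larger effect of cisplatin in wild-type hearts was not shown.

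Camk2d, the delta subunit and the main form of the kinase in cardiomyocytes (chromosome 3, 126596302 to 126846326), was at 53.0, 43.2 and 33.7 TPM in Saline hearts and at 28.7, 21.2 and 39.3 TPM in CDDP hearts. It was at 29.7, 36.9 and 45.0 TPM in STING-/- hearts and at 32.4, 27.6 and 24.8 TPM with cisplatin. The groups overlapped in both genotypes. The log2 fold change was -0.55 (standard error 0.24, adjusted p = 0.132 by limma) in wild-type, -0.37 (adjusted p = 0.538) in STING-/- hearts and -0.46 (adjusted p = 0.0790) averaged over both.

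**Figure D2:**
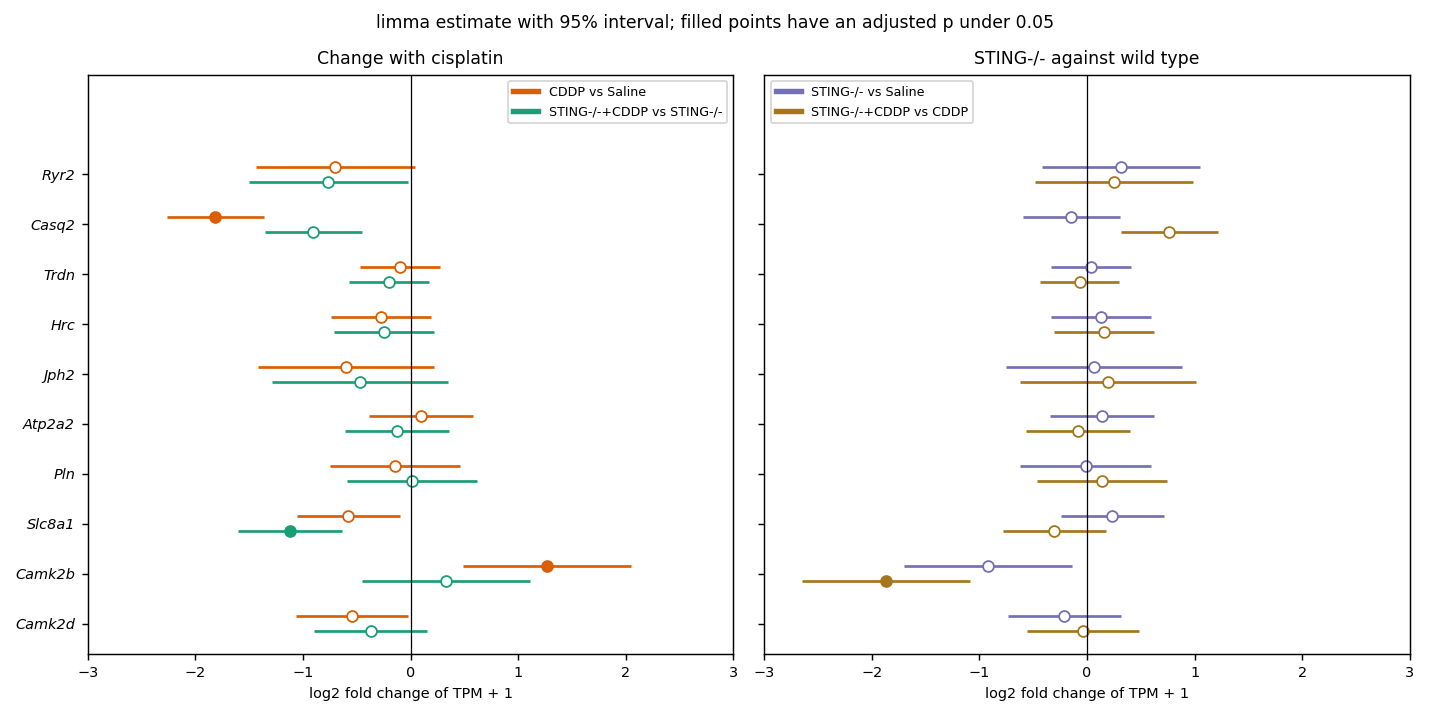
Log2 fold change of TPM + 1 (horizontal axes) of the 10 genes with cisplatin in each genotype (left) and between genotypes without and with cisplatin (right), as limma estimates with 95% intervals from 12 hearts. Filled points passed an adjusted p of 0.05: Casq2 (-1.82) and Camk2b (1.27) in CDDP against Saline, Slc8a1 (-1.12) in STING-/-+CDDP against STING-/-, and Camk2b (-1.87) in STING-/-+CDDP against CDDP hearts.

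By ranges alone, 4 of the 10 genes did not overlap between CDDP and Saline hearts (Ryr2, Slc8a1 and Casq2 lower, Camk2b higher), and 32.0% of all genes tested did not. Of the 10 genes in STING-/- hearts, 3 did not overlap with cisplatin (Ryr2, Slc8a1 and Casq2, all lower), against 24.2% of all genes. Between STING-/-+CDDP and CDDP hearts 2 did not overlap (Casq2 higher, Camk2b lower), against 22.7%. Between STING-/- and Saline hearts 1 did not overlap (Camk2b lower). The share over all genes is not given here for this pair, so no result is read from that count. The median log2 fold change over the 10 genes was -0.41 in CDDP against Saline hearts, where the median over all genes tested was -0.0032, and -0.31 in STING-/-+CDDP against STING-/- hearts, where it was -0.11. In each of these comparisons 8 of the 10 genes had a negative value, as did 50.2% and 64.6% of all genes tested. Without heart 1 of the CDDP group the wild-type values were -1.64 (Casq2), -0.54 (Camk2d), -0.34 (Slc8a1), -0.29 (Ryr2), -0.07 (Jph2) and -0.0044 (Hrc). The others were then 0.02 (Trdn), 0.21 (Atp2a2), 0.26 (Pln) and 0.80 (Camk2b), where the median over all genes tested was 0.07.

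Ratios of TPM between partner proteins within a heart do not depend on the scaling between hearts, and 6 were tested with an exact permutation test, two-sided, with labels permuted within strata (400 arrangements, smallest p = 0.005) and adjustment over 12 tests. The ratio of exchanger to pump, Slc8a1 to Atp2a2, was 0.0143 ± 0.00252 (SD, n = 3) in Saline, 0.00909 ± 0.00332 in CDDP, 0.0152 ± 0.00100 in STING-/- and 0.00745 ± 4.34e-04 in STING-/-+CDDP hearts. With cisplatin it was lower by a log2 difference of -0.86 (exact p = 0.010, adjusted p = 0.040), and 1 heart, CDDP heart 2 at 0.0129, overlapped the untreated range. Camk2b to Camk2d, the beta against the delta kinase, was 0.247 ± 0.123 in Saline, 0.977 ± 0.632 in CDDP, 0.125 ± 0.00681 in STING-/- and 0.214 ± 0.0237 in STING-/-+CDDP hearts. Cisplatin went with a log2 difference of 1.34 in this ratio (exact p = 0.005, adjusted p = 0.040), and loss of STING with -1.42 (exact p = 0.010, adjusted p = 0.040). Adding 1 to each TPM left these 3 differences at -0.84, 1.26 and -1.27 with an adjusted p of 0.06 each by the same permutation test. Each of these calls was also lost in 9 of 12 tests without 1 heart, heart 1 of the CDDP group included, which hold fewer arrangements (adjusted p up to 0.12 by the permutation test).

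**Figure D3:**
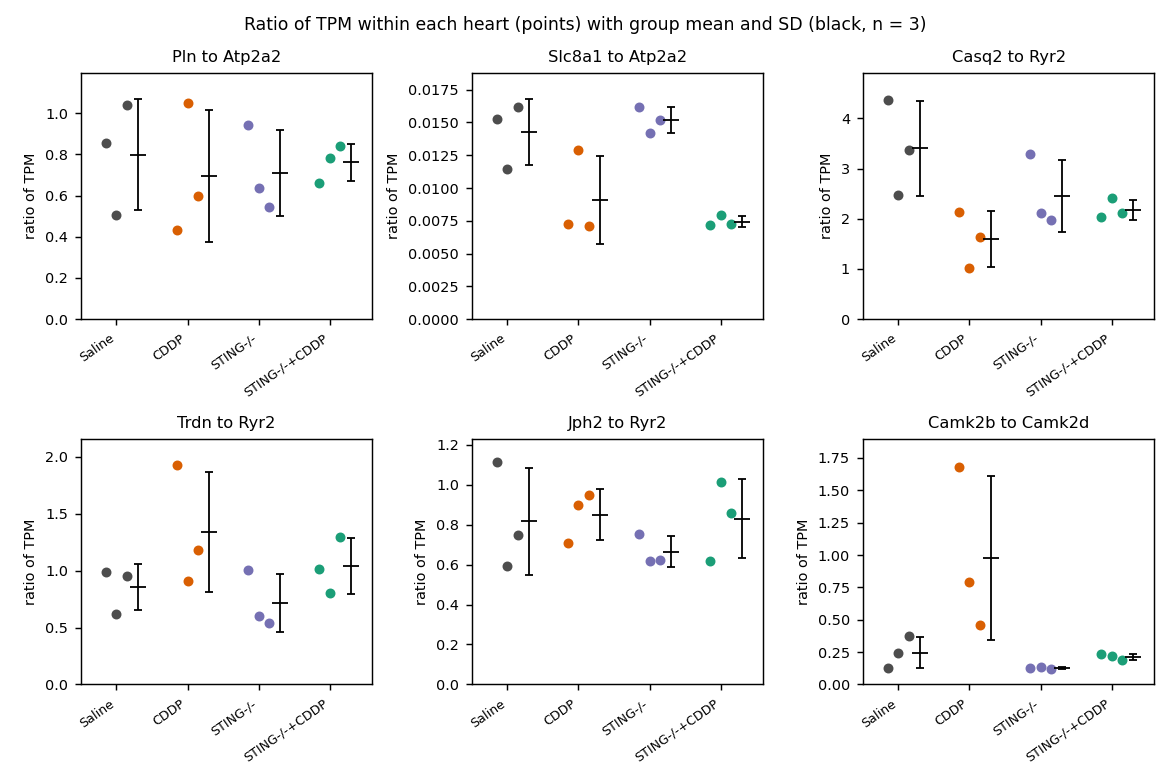
Ratio of TPM of 6 pairs of partner genes within each heart (vertical axes, each from 0), by group, with points for the 12 hearts and black marks for the group mean and SD (n = 3). The Slc8a1 to Atp2a2 ratio is 0.00716 to 0.00794 in the STING-/-+CDDP hearts and 0.0142 to 0.0162 in the STING-/- hearts, and the Camk2b to Camk2d ratio reaches 1.68 in heart 1 of the CDDP group.

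The ratio of buffer to channel, Casq2 to Ryr2, was 3.40 ± 0.952 (SD, n = 3) in Saline and 1.60 ± 0.562 in CDDP hearts, but 2.46 ± 0.717 and 2.18 ± 0.201 in the STING-/- and STING-/-+CDDP hearts. Over both genotypes its log2 difference with cisplatin was -0.63 (exact p = 0.055, adjusted p = 0.132), and that of Trdn to Ryr2 was 0.59 (exact p = 0.055, adjusted p = 0.132). Pln to Atp2a2, the brake against the pump, differed by -0.05 with cisplatin (exact p = 0.865, adjusted p = 0.945) and by 0.04 with genotype (exact p = 0.890, adjusted p = 0.945). In the 4 calmodulin kinase II genes together, Camk2b made up 12.5% ± 5.28 (SD, n = 3) of the summed TPM in Saline hearts, 32.5% ± 14.9 in CDDP, 6.59% ± 0.338 in STING-/- and 10.8% ± 1.43 in STING-/-+CDDP hearts. Camk2d made up 52.6% ± 5.94, 36.4% ± 8.20, 52.8% ± 4.03 and 50.6% ± 2.22 in the same order. In heart 1 of the CDDP group Camk2b held 49.4% of the sum and Camk2d 29.4%, the reverse of their order in the other 11 hearts.

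Of 82 other genes of calcium cycling, 76 passed the filter. In CDDP against Saline hearts 13 of these 76 were called, 17.1% beside 18.9% of all genes tested, 1 higher and 12 lower, and their median log2 fold change was -0.14. The fall was led by Casq1, the calsequestrin of skeletal muscle, at -2.11 on the log2 scale (SE 0.54, adjusted p = 0.0202, limma). Casq1 was at 8.91, 17.5 and 4.05 TPM in Saline hearts and at 1.65, 0.29 and 2.38 TPM in CDDP hearts, a low level beside Casq2 in every heart. Its highest Saline value was in heart 2, the heart with the highest sum of skeletal muscle markers, without which the log2 fold change was -1.65 (adjusted p = 0.0556 by limma). In STING-/- hearts, where those markers summed to 6.30 to 11.7 TPM, Casq1 was at 11.8, 13.0 and 21.0 TPM. A link of Casq1 to skeletal muscle in the samples was not tested. Asph, whose products include junctin, the partner of triadin at the release channel, fell by 1.31 (adjusted p = 0.00277), from 79.6, 68.6 and 62.2 TPM to 20.8, 25.9 and 38.9 TPM. Gene-level values do not separate junctin from the other products of Asph. Srl, which encodes the calcium binding sarcalumenin of the store, fell by 1.27 (adjusted p = 0.00573), from 254, 290 and 194 TPM to 70.5, 112 and 127 TPM.

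Of the 14 tested genes of calcium entry and extrusion 4 were lower and 0 higher by limma. In CDDP against Saline hearts 10.4% of all genes tested were called lower and 8.52% higher. The T-type channel gene Cacna1g had a log2 fold change of -1.10 (adjusted p = 0.0490 by limma), and the subunits of the L-type channel Cacnb2 and Cacna2d1 were each at -0.91 (adjusted p = 0.0128 and 0.0132). Cacna1c, the pore of the L-type channel and named after its values were seen, was at -0.18 (adjusted p = 0.744). Bin1, which shapes T-tubules, was at -0.90 (adjusted p = 0.0223). Without heart 2 of the Saline group Cacna1g and Bin1 were at -0.86 and -0.80 and lost their calls (adjusted p = 0.131 and 0.0578). Tmem38b, a potassium channel of the store membrane that accompanies calcium release, was the 1 gene of the 76 called higher, by 1.24 (adjusted p = 0.00435 by limma). It was at 7.52, 13.1 and 12.8 TPM in Saline and at 33.6, 23.4 and 24.8 TPM in CDDP hearts. Others of the 76 had positive values without a call. The 5 others that passed, all lower, were Prkaca, Mcu, Calr, Calm3 and Orai1. Leaving out heart 1 of the CDDP group gave 11 calls in place of 13, and leaving out heart 1 of the Saline group gave 5.

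With cisplatin averaged over genotypes, 18 of the 76 genes passed, 2 higher (Tmem38b and Ppp1ca) and 16 lower, 23.7% beside 19.8% of all genes tested. Asph fell by 1.13 (adjusted p = 7.39e-04 by limma), Srl by 1.03 (adjusted p = 0.00231) and Cacnb2 by 0.95 (adjusted p = 0.00162). Of the genes of release and junction 16 were tested, of which 6 were called lower and 1 higher. Of those of entry and extrusion 14 were tested, of which 3 were called lower. Of 8 genes of the uptake pump and its regulators 0 passed by limma, and of 18 kinases, phosphatases and anchors 2 were called lower and 1 higher. The mitochondrial, T-tubule and lumen lists had 2 of 8, 2 of 6 and 1 of 6 genes lower. Over all genes tested 12.6% were called lower and 7.28% higher with cisplatin averaged over genotypes. In STING-/-+CDDP against STING-/- hearts 0 of the 76 passed by limma, with 15 at an unadjusted p under 0.05, beside 13.5% of all genes tested. The 8 genes described above, chosen by their values in wild-type hearts, were here at log2 fold changes of -1.66 (Casq1), -0.99 (Cacnb2), -0.96 (Asph), -0.92 (Cacna2d1), -0.79 (Srl), -0.61 (Cacna1g), -0.43 (Bin1) and 0.27 (Tmem38b). In STING-/-+CDDP against CDDP hearts 0 passed by limma, with 10 of the 76 at an unadjusted p under 0.05, beside 19.8% of all genes tested. Over the alternative settings between 0 and 5 and between 0 and 1 of the 76 genes passed in these comparisons.

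**Figure D4:**
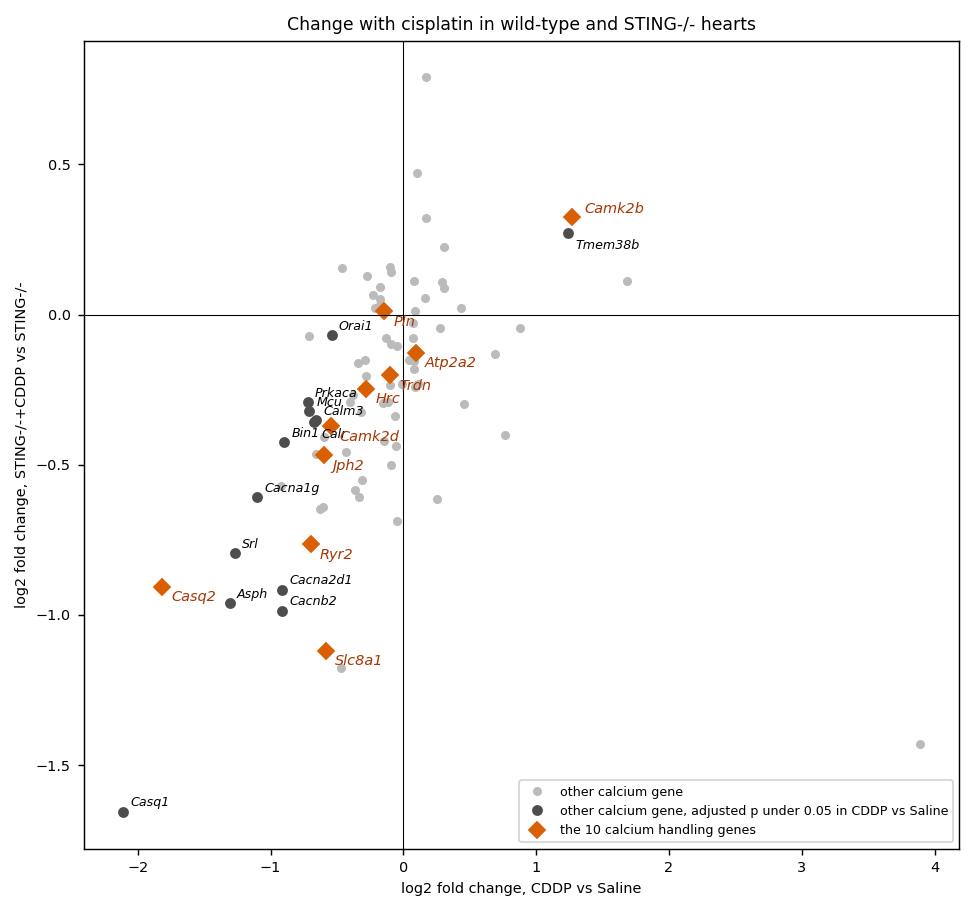
Log2 fold change with cisplatin in wild-type hearts (CDDP against Saline, horizontal axis) and in STING-/- hearts (vertical axis) of the 10 genes (orange diamonds) and 76 other calcium genes (grey, dark where the adjusted p in CDDP against Saline was under 0.05), from 6 hearts on each axis with none in common. Casq2 lies at -1.82 and -0.91, beside Asph at -1.31 and -0.96 and Srl at -1.27 and -0.79, and Camk2b and Tmem38b lie together at the right.

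Sln, which encodes sarcolipin, the brake of the pump in atria, is the point at the far right of that plot and was named after its values were seen. It was at 0.09, 833 and 0.08 TPM in Saline hearts and at 167, 27.8 and 654 TPM in CDDP hearts. The single high Saline heart was the one with high atrial markers, and Sln passed in no comparison.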

How the data were processed

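RNA-seq of 12 hearts was analysed, 3 in each group of genotype and treatment as labelled. The values deposited by the authors are TPM with 2 decimals, whose columns summed to between 999999 and 1000001. The submitters' processing notes name fastp, HISAT, RSEM and the build GRCm38.p5, without versions. TPM hold no read counts, so the depth per heart is unknown and no interval or floor from counting was given. The authors' group means, 4 columns, were left out.

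The filter asked for a TPM of 1 or more in 3 or more hearts. A linear model with a coefficient per group was fitted to log2(TPM + 1) of all hearts together by limma (version 3.58.1, R 4.3.3, with a trend in eBayes). Tests were two-sided, and p-values were adjusted by Benjamini-Hochberg over all genes that passed the filter, with a threshold of 0.05. Ratios of TPM were compared with exact permutation tests. The procedures were tested on simulated data. Nothing in the sources says how hearts were sampled beyond the animal, so p-values measure the spread between these 12 samples.

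The 10 genes, the 82 other calcium genes and the marker lists were chosen with earlier results of these data known. The 10 genes are given in every comparison. Of the other calcium genes, at most 8 past the threshold in a comparison are described, by absolute log2 fold change, and genes named beyond these are given by name only or as chosen after their values were seen. Positions are from GENCODE M21 (GRCm38) and upstream sequences from RefSeq (GRCm38.p6), where Atp2a2 and Trdn had no entry. Same-numbered hearts of different groups come from different mice, and their deviations from the group means correlated between -0.333 and 0.261 over 18 pairs, so no block was used. Alternatives were a pseudocount of 0.1, no filter or a filter at a TPM of 5, the compared groups only, scaling by the median of ratios, quantile normalization, TPM without mitochondrially encoded genes or relative to cardiomyocyte markers, eBayes without a trend, arrayWeights, the replicate block, an atrial covariate, and each heart left out. CDDP heart 1 and Saline heart 2 were also left out together, a choice made after seeing the data. Counts over 13 or 12 alternative settings include that choice, and fits without 1 heart are counted apart. Plots used matplotlib 3.10.9 (Python 3.11.15).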

Additional observations from a re-analysis of the deposited data

How the results depend on the processing

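Casq2 kept its call in CDDP against Saline hearts in all 13 alternative settings (log2 fold change -1.89 to -1.68) and without each of the 12 hearts (-2.06 to -1.64), and Slc8a1 kept its call averaged over genotypes. Of 1480 alternative values of log2 fold changes of the 10 genes, 42 lost and 28 gained a call. In 98 the sign changed where the main value lay within 1 standard error of 0 and neither value was called. Hrc in CDDP against Saline hearts turned from -0.28 to 0.0086 without CDDP heart 1 and Saline heart 2, which were left out together after seeing the data. That setting gave 1 called gene of the 10 in CDDP against Saline, 2 in STING-/-+CDDP against STING-/-, and 3 and 1 of the other calcium genes in STING-/-+CDDP against STING-/- and against CDDP.

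In CDDP against Saline hearts, 2 of the 10 genes were called, against 1 with no filter, with the compared groups only and with the replicate block, and 4 with quantile normalization. The 13 other calcium genes became 4 with the compared groups only and 7 relative to cardiomyocyte markers, where Camk2b lost and Slc8a1 gained a call. Over all genes tested, 2610 calls became 2086 with no filter, 822 with the compared groups only, 3904 with quantile normalization and 1223 relative to cardiomyocyte markers. In STING-/-+CDDP against STING-/- hearts, 1 of the 10 became 0 with no filter, the replicate block and the atrial covariate, and 2 with the compared groups only, quantile normalization and arrayWeights. The 0 other calcium genes became 1 with the compared groups only, 2 with the median of ratios, without mitochondrially encoded genes and with quantile normalization, and 5 with arrayWeights. Over all genes 129 calls became 32 relative to cardiomyocyte markers, 46 with no filter and 86 at a TPM of 5. In the other settings they became between 92 and 613. Averaged over genotypes, 3 of the 10 became 5 with quantile normalization, and 18 other genes became 8 relative to cardiomyocyte markers, while 2740 over all genes became 3962 and 1335. In STING-/-+CDDP against CDDP hearts, 1 of the 10 became 0 with no filter, the compared groups only, the replicate block and relative to cardiomyocyte markers, and 2 with the median of ratios, without mitochondrially encoded genes, with quantile normalization and arrayWeights. The 0 other genes became 1 at a TPM of 5, without mitochondrially encoded genes, and with quantile normalization, arrayWeights and the atrial covariate, while 168 over all genes became between 12 and 671. The cause of these differences was not tested.

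Leaving out 1 heart gave 1 to 3 called genes of the 10 in CDDP against Saline, 0 to 2 in STING-/-+CDDP against STING-/-, 2 to 5 averaged over genotypes and 0 to 1 in STING-/-+CDDP against CDDP. For the other calcium genes it gave 5 to 14, 0 to 4, 11 to 19 and 0 to 1. The lowest averaged count, 11, came without Saline heart 1 and without STING-/- heart 2, and the highest count of the 10, 5, without CDDP heart 3. Same-numbered hearts share only a number: 4 of 18 pairs correlated over 0.1 and 4 of 18 best with their own number. The replicate block gave 2175 called genes in place of 2610 in CDDP against Saline hearts and 67 in place of 168 in STING-/-+CDDP against CDDP hearts. The share of higher genes among those called was 27.1% in STING-/-+CDDP against STING-/-, 47.1% with the median of ratios and 55.9% with quantile normalization. It was 29.8%, 41.8% and 46.8% in STING-/-+CDDP against CDDP, and 36.7%, 49.2% and 51.4% averaged over genotypes. With 1 added to each TPM, the log2 differences with an adjusted p of 0.040 became -0.84 for Slc8a1 to Atp2a2 with cisplatin, and 1.26 and -1.27 for Camk2b to Camk2d with cisplatin and with loss of STING. Without 1 heart they ranged from -1.0043 to -0.79, from 1.10 to 1.56 and from -1.64 to -1.17.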
